A study of Mus musculus with 4 samples.

Results

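The genes described here encode the receptors and ligands of the Notch pathway: the 4 receptors Notch1 to Notch4, the 5 canonical ligands Jag1, Jag2, Dll1, Dll3 and Dll4, and the related protein Dlk1. They were found by matching the transcript accession of each array probe to RefSeq, which gave 13 probes on 22 spots for all 10 genes, out of 41174 probes on 43379 spots. The study measured RNA of prostate spheres, which are small clumps grown in culture from single sorted cells, here basal cells sorted by flow cytometry from the prostates of adult FVB mice. DAPT spheres received DAPT, an inhibitor of γ-secretase, at 5 µM, and vehicle spheres received DMSO, with medium exchanged every 24 h in both. Each group had 2 arrays (n = 2 throughout), and each array set 1 sphere RNA, labelled red, against a pooled reference RNA from mouse, labelled green. Nothing in the labels ties the arrays to independent cultures or mice. The p-values therefore speak of the spread between these 4 samples, and that spread may be technical.

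Notch receptors are membrane proteins that are switched on by ligands on a neighbouring cell. Ligand binding exposes the receptor to an ADAM protease and then to γ-secretase, which frees the intracellular part to enter the nucleus and act with the DNA-binding protein RBPJ. DAPT blocks the γ-secretase step, which acts on the receptor protein, whereas the arrays measured the RNA of the receptor and ligand genes. In prostate epithelium Notch signalling between neighbouring cells takes part in the choice between basal and luminal fates.

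Values are log2 ratios of sphere RNA over reference RNA after background correction and loess normalisation within each array, and changes are differences of these ratios, DAPT over vehicle, ± SE from limma. A threshold of 0.05 was applied to p-values with Benjamini-Hochberg adjustment over all 21459 genes tested. The mean log2 ratio of 9 basal markers was 3.18 and 2.95 on the DAPT arrays, against 3.19 and 2.93 on the vehicle arrays, with Krt5 between 4.63 and 5.17 on all 4 and Dst below 0 on all 4. The mean of 8 luminal markers was 2.63 and 2.55 with DAPT, against 3.14 and 2.99 with vehicle, so luminal markers also lay above the reference. The ratios of all genes tested correlated at 0.943 between the DAPT arrays, 0.922 between the vehicle arrays and 0.839 to 0.879 across groups. The DAPT arrays were brighter, with a median red signal above local background of 110.5 and 84, against 57.5 and 49.5 on the vehicle arrays. The 4 arrays shared 1 slide and 1 scan, but the DAPT arrays took positions 2 and 1 and the vehicle arrays positions 4 and 3, so slide position and treatment cannot be told apart. The scanner software marked 49.6% and 50.9% of probe spots on the DAPT arrays as uneven or as outliers, against 11.5% and 29.2% on the vehicle arrays, and these spots were kept. The Notch3 spots carried no mark, the Jag2 spot was marked on DAPT 1, and the Dlk1 spot was marked on both DAPT arrays. Without marked spots Jag2 stood at 1.67 (adjusted p = 0.00435) and Notch3 at -0.81 (adjusted p = 0.0290), both in limma, and Dlk1 could not be fitted. Individual red and green signals are given below as multiples of the median of their array.

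Of the 10 genes 1 was higher with DAPT, Jag2, and 2 were lower, Notch3 and Dlk1. The other 6 of the 9 genes that could be tested did not pass, and Dll3 was too dim to test. Over all genes tested, 6.8% passed, 2.88% higher and 3.92% lower. Taken probe by probe, 3 of the 12 probes bright enough to test passed, those of Jag2, Notch3 and Dlk1, against 6.9% of all probes tested. The median change of the 9 genes was -0.25, with 4 above 0 and 5 below, against a median of -0.06 over all genes tested. In 7 of the 9, both DAPT arrays lay on one side of both vehicle arrays, which also held for 53.8% of all genes tested. Of the 3 calls, Jag2 passed whichever array was left out, while Notch3 and Dlk1 did not. A second array per group is the only check on spread, and an exact permutation test of 2 arrays against 2 cannot go below p = 0.333.

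**Figure D1:**
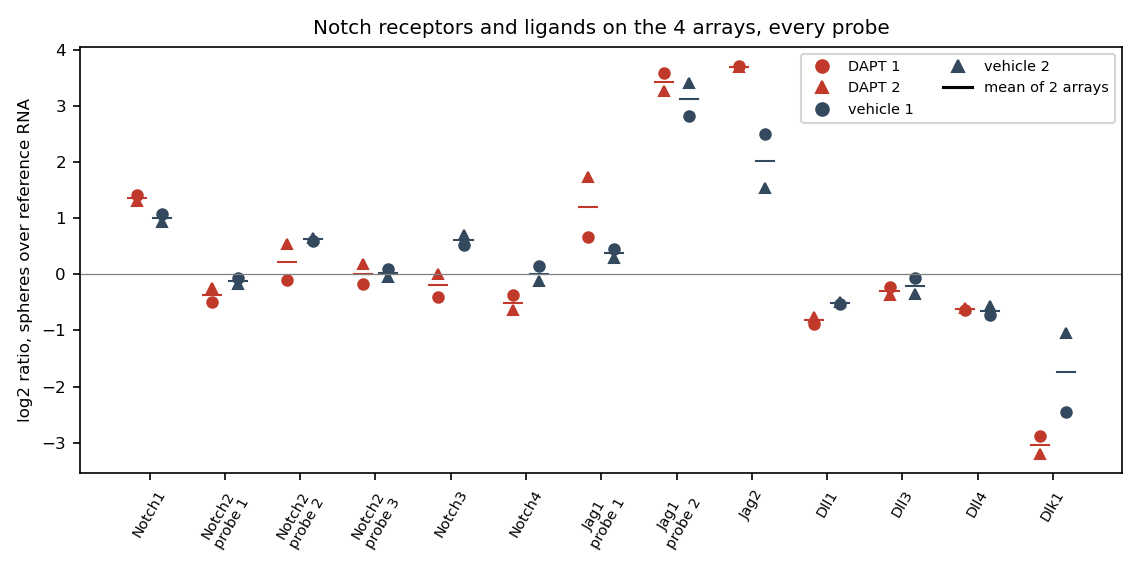
Log2 ratio of sphere RNA over reference RNA (vertical axis) for each of the 13 probes, with DAPT arrays in red to the left of vehicle arrays in dark blue, circles for replicate 1, triangles for replicate 2, and a short line at each mean. The DAPT arrays lie above both vehicle arrays for Jag2 and below them for Notch3 and Dlk1. Such a separation holds for 7 of the 9 genes tested and for 53.8% of all genes tested. Jag1 probe 1 is A_51_P280906 and probe 2 is A_52_P634090, and Notch2 probes 1 to 3 are A_51_P216397, A_52_P289213 and A_52_P448796.

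Among the receptors, Notch3 was the one that fell. Notch3 is the receptor best known for its role in the mural cells of blood vessels, and its gene is itself activated by Notch signalling in several tissues. Its log2 ratio was -0.40 and 0.00 on the DAPT arrays, against 0.53 and 0.70 on the vehicle arrays. The groups did not overlap, and the change was -0.81 ± 0.21 (95% interval -1.27 to -0.36, 1.76-fold lower, adjusted p = 0.0385 in limma). Its red signal was 0.362 and 0.619 times the array median with DAPT, against 0.783 and 0.990 with vehicle, while its green signal was 0.701 and 0.706, against 0.424 and 0.410. As multiples of the array median both colours separated the groups, the sphere signal lower and the reference signal higher on the DAPT arrays. Before that division the red signal above local background overlapped, at 40 and 52 with DAPT, against 45 and 49 with vehicle. In the fit named sample channel alone, here and below, Notch3 stood at -0.26 and did not pass (adjusted p = 0.721). Its red values were rebuilt from the normalised ratio and the mean of both colours, quantile scaled between arrays. That fit therefore does not set the reference colour aside. The probe was dim in sphere RNA, and on the DAPT 1 array it was not well above background. It met the brightness filter through the vehicle arrays, the group where its ratio was higher, and it was not tested when all 4 arrays had to meet it. Without DAPT replicate 1 the change was -0.61 (adjusted p = 0.192) and without vehicle replicate 2 it was -0.73 (adjusted p = 0.0962), and neither passed. With the scanner software's processed intensities it was -2.05.

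Notch1 and Notch2 are the receptors commonly found in epithelial cells, and neither passed. For Notch1 the log2 ratio was 1.42 and 1.31 with DAPT, against 1.07 and 0.93 with vehicle. Both DAPT values were higher, yet the change of 0.36 ± 0.19 (95% interval -0.06 to 0.78, adjusted p = 0.293) did not pass, and in the sample channel alone it was -0.04. The red signal of Notch1 was 2.34 and 2.58 times the array median with DAPT, against 2.24 and 3.17 with vehicle, so the sphere signals overlapped.

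The upstream sequences of Notch3, which fell, and of Notch1, which did not pass, are shown because the DNA-binding partner of Notch, RBPJ, acts at sites with the core TGGGAA. The windows come from RefSeq (GRCm38.p6), on the minus strand, without bases of the annotated gene: chr17:32166897-32167140 for Notch3 and chr2:26503823-26504072 for Notch1. Capitals mark GC boxes, GGGCGG or its reverse complement.
Notch3: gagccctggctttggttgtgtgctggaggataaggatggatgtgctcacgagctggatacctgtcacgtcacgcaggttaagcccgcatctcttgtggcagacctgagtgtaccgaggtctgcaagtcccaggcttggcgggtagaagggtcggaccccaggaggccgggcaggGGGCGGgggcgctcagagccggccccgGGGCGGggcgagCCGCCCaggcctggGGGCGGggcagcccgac
Notch1: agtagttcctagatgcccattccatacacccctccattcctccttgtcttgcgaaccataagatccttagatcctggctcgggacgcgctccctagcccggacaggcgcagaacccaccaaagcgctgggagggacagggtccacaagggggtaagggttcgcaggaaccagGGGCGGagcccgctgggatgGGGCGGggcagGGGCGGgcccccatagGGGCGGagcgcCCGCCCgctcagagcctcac
Neither held TGGGAA, and Notch3 had 4 GC boxes and Notch1 had 5. Searched on both strands in the 250 bases before the start, none of the 11 windows of the 10 genes held TGGGAA, against 21.6% of 32851 windows of all genes, and none held the longer form GTGGGAA, which contains it (5.42% of all). GGGCGG was in the windows of 6 of the 10 genes (32.7% of all windows) and TATAAA in none (12.4% of all). For Jag2 and Dlk1 the window overlaps the annotated span of the gene, and it is not printed. These are matches of letters in a short window only.

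Notch2 was read by 3 probes. The brightest, A_51_P216397, gave -0.50 and -0.25 with DAPT, against -0.07 and -0.18 with vehicle. A second, A_52_P289213, gave -0.11 and 0.53, against 0.59 and 0.65. The dimmest, A_52_P448796, gave -0.17 and 0.18, against 0.09 and -0.05. Tested each on its own, the 3 probes changed by -0.25 ± 0.20, -0.41 ± 0.23 and -0.01 ± 0.21, and none passed (adjusted p = 0.479, 0.309 and 0.975 in limma over all probes kept). The first 2 had both DAPT arrays below both vehicle arrays, and the third did not. The change of the brightest probe turned to 0.25 with the processed intensities and 0.10 with median centring.

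Notch4, a receptor known mainly from endothelial cells, had log2 ratios of -0.37 and -0.64 with DAPT, against 0.14 and -0.12 with vehicle. The groups did not overlap, but the change of -0.51 ± 0.21 (95% interval -0.96 to -0.07) did not pass after adjustment (unadjusted p = 0.0275, adjusted p = 0.155). It was below 0 and did not pass under each of the 17 alternatives run, several of which leave the change itself as reported. The red signal of Notch4 was 0.986 and 0.589 times the array median with DAPT, against 0.913 and 1.12 with vehicle. Its green signal was 1.38 and 1.25, against 0.847 and 1.33, so neither colour alone separated the groups. Of 12 endothelial markers, 5 were too dim in sphere RNA to be tested (Cdh5, Tek, Tie1, Kdr and Robo4), and none of the other 7 passed. Their mean log2 ratio was -0.81 and -0.79 with DAPT, against -0.62 and -0.54 with vehicle.

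Among the ligands Jag2 rose, by the largest change of the 9 genes tested as processed here, though with processed intensities that of Notch3 was larger. Jag2 encodes a Jagged-type ligand with a role in limb, palate and thymus development. Its log2 ratio was 3.71 and 3.69 on the DAPT arrays, against 2.50 and 1.55 on the vehicle arrays. The DAPT arrays differed from each other by far less than the vehicle arrays did, and the groups did not overlap. The change was 1.68 ± 0.27 (95% interval 1.09 to 2.27, 3.20-fold higher, adjusted p = 0.00387 in limma). The red signal of the spot was 14.0 and 13.2 times the array median with DAPT, against 4.12 and 2.41 with vehicle. The green signal of the same spot was 0.661 and 0.597 with DAPT, against 0.398 and 0.505 with vehicle. Sphere and reference signal were thus both higher on the DAPT arrays, the sphere signal by far the more. Jag2 was 1.98 higher in the sample channel alone, though without a call (adjusted p = 0.212), in a fit that called 0 genes higher and 1 lower in all (2636 at an unadjusted p under 0.05). It did not pass with the processed intensities either (1.20, adjusted p = 0.107), and with scale normalization between arrays its change was 1.08.

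Jag1, the other Jagged-type ligand and the more widely expressed of the pair, was read by 2 probes, and neither passed. The brighter, A_52_P634090, gave 3.59 and 3.27 with DAPT, against 2.83 and 3.41 with vehicle. The other, A_51_P280906, gave 0.66 and 1.74, against 0.45 and 0.29. The groups overlapped for the first probe and not for the second. The red signal of the second was 1.93 and 3.13 times the array median with DAPT, against 2.00 and 2.80 with vehicle, so the sphere signals overlapped. Its green signal was lower on both DAPT arrays, at 1.06 and 0.682, against 1.29 and 2.02 with vehicle. The changes of the 2 probes were 0.31 ± 0.23 and 0.83 ± 0.29 (adjusted p = 0.451 and 0.113 in limma over all probes kept). The probes disagreed on the level, the brighter reading 1.53 to 3.12 log2 units more over reference than the other on the same array, and the gap was smallest on DAPT 2. The Jag1 change was below 0 with processed intensities (-0.14) and after scale normalization (-0.40).

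The Delta-type ligands did not pass. Dll1, which marks cells that send the Notch signal in many tissues, was read by 1 probe on 10 spots, which shows the spread within an array. Its mean log2 ratio was -0.88 and -0.76 with DAPT, against -0.54 and -0.49 with vehicle, and the change was -0.31 ± 0.19 (95% interval -0.73 to 0.11, adjusted p = 0.372). The 10 spots ran from -1.11 to -0.48 on DAPT 1 and from -0.996 to -0.50 on DAPT 2, against -0.67 to -0.39 on vehicle 1 and -0.83 to 0.03 on vehicle 2. The SD over spots of the same array was thus 0.209 and 0.155 with DAPT and 0.0955 and 0.268 with vehicle, and single spots of the groups overlapped while their means did not. The scanner software marked 10 and 9 of the 10 Dll1 spots on the DAPT arrays, against 4 and 5 on the vehicle arrays. Each probe of the other 9 genes had 1 spot an array.

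Dll4, a ligand known best from sprouting vessels, had log2 ratios of -0.63 and -0.59 with DAPT, against -0.73 and -0.56 with vehicle. The groups overlapped, and the change was 0.03 ± 0.19 (95% interval -0.39 to 0.46, adjusted p = 0.939). Dll3, a divergent ligand that inhibits Notch within its own cell and is known from neuroendocrine tumours, was not well above background in red on any of the 4 arrays. Its red signal above local background was 7.5 and -4 with DAPT, against 6 and 2 with vehicle, so no change is given. Of 8 neuroendocrine markers 5 could be tested and 1 was lower, and their mean log2 ratio was -0.99 and -1.05 with DAPT, against -0.89 and -0.45 with vehicle.

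**Figure D2:**
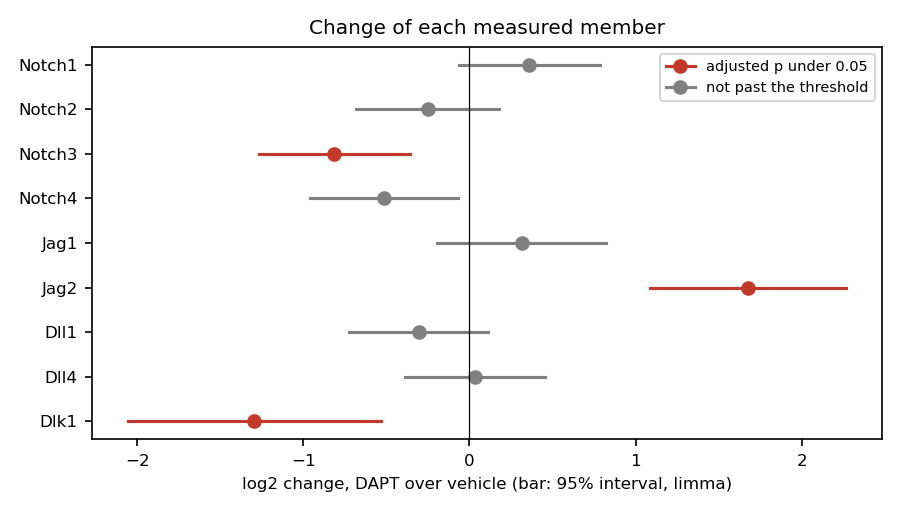
Log2 change, DAPT over vehicle, with its 95% interval from limma for the 9 genes that could be tested; red marks an adjusted p under 0.05. The interval of Jag2 lies above 0, those of Notch3, Notch4 and Dlk1 lie below it, and Notch4 does not pass after adjustment.

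Dlk1 encodes a Delta-like protein without the receptor-binding DSL domain of the canonical ligands, known from fetal tissue and fat precursors. It was below the reference in all 4 samples, with log2 ratios of -2.89 and -3.19 with DAPT, against -2.45 and -1.04 with vehicle. The change was -1.29 ± 0.35 (95% interval -2.05 to -0.53, 2.45-fold lower, adjusted p = 0.0458 in limma). Its red signal as a multiple of the array median did not separate the groups, at 0.679 and 0.577 with DAPT, against 0.661 and 0.687 with vehicle. The rebuilt red values of the sample channel fit did separate them, at 7.33 and 7.33 on the log2 scale with DAPT, against 7.67 and 7.72 with vehicle. Those values also draw on the green signal. The green signal was 6.18 and 7.87 with DAPT, against 6.13 and 2.25 with vehicle, so the vehicle 2 array stood apart in the reference channel. Without vehicle replicate 2 the change was -0.59 (adjusted p = 0.184) and did not pass, and without vehicle replicate 1 it was -2.001. In the sample channel alone it was -0.37 (adjusted p = 0.576), and with the authors' deposited value table -1.28 (adjusted p = 0.0532).

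**Figure D3:**
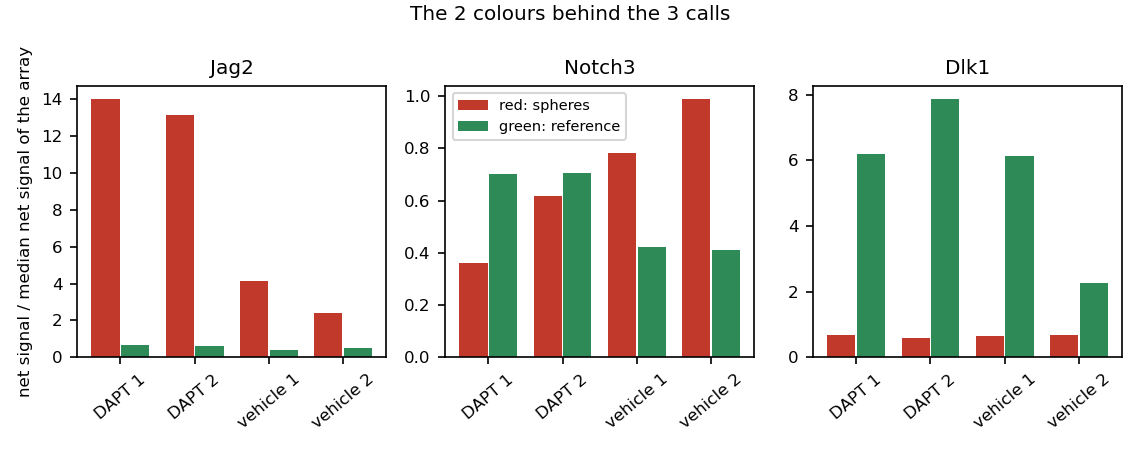
Red signal (sphere RNA) and green signal (reference RNA) of the Jag2, Notch3 and Dlk1 probes on each array, above local background and divided by the median of that array and colour; each panel has its own linear axis from 0. Jag2 is high in red on both DAPT arrays (14.0 and 13.2, against 4.12 and 2.41 with vehicle), whereas for Dlk1 the bar that differs most is green on vehicle 2, at 2.25.

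Fibroblast markers were lower with DAPT, as Notch3 and Dlk1 were. Of 12 fibroblast markers 11 could be tested, 8 were lower with DAPT and none higher, and their median change was -1.58. Their mean log2 ratio was -1.43 and -1.28 with DAPT, against -0.14 and 0.20 with vehicle. Of 10 smooth muscle and pericyte markers 3 were lower and 0 higher, namely Myh11, Pdgfrb and Cspg4 (named after their values were seen). The others did not pass: Acta2 changed by -0.04, Smtn by -0.07, Myocd by -0.11 and Rgs5 by -0.28. Des changed by -0.48, Tagln by -0.53 and Cnn1 by 0.29. The mean log2 ratio of all 10 was -0.24 and -0.15 with DAPT, against 0.30 and 0.32 with vehicle. The cells had been sorted as basal before culture. The part of fibroblasts and mural cells in the Notch3 and Dlk1 values was not tested, and in bulk RNA fewer cells of a type and less RNA per cell cannot be told apart. Among epithelial markers 1 of 9 basal ones was lower (Krt15) and 2 of 8 luminal ones tested were lower, Krt19 among them, these too named after their values were seen. Of 6 haematopoietic markers tested none passed.

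For each of the 3 calls, the named genes with the most alike pattern were found by the Euclidean distance between log2 ratios over the 4 arrays. Each gene was centred on its own mean. A direction, order of arrays or loss of call shared with the member largely follows from that choice and is no separate evidence. For Jag2 these were Mbl2 (distance 0.0875), the stress keratin gene Krt16 (0.125) and Pclo (0.164). They rose by 1.69, 1.59 and 1.61 and, like Jag2, had a higher ratio on vehicle 1 than on vehicle 2. Mbl2 and Pclo met the brightness filter through 1 group only and were not tested when all 4 arrays had to meet it. With processed intensities Mbl2 stood at 1.89 and did not pass (adjusted p = 0.110 in limma). For Notch3 the 3 most alike included Itm2b (0.0716) and Slc4a8 (0.0862), with changes of -0.87 and -0.80. Both lost their call without DAPT replicate 1 (adjusted p = 0.169 and 0.194) and without vehicle replicate 2 (adjusted p = 0.0796 and 0.134). For Dlk1 they were the keratin gene Krt90 (0.220), Pla1a (0.271) and Smarcal1 (0.367), each highest on vehicle 2. The change of Krt90 was -1.32 (adjusted p = 0.0232), while Pla1a at -1.04 and Smarcal1 at -0.99 did not pass. Without vehicle replicate 2 Krt90 stood at -0.74 and lost its call (adjusted p = 0.0776). Pla1a and Smarcal1 passed with the replicate block (adjusted p = 0.0341 and 0.0249 in limma). Without vehicle replicate 1 they stood at -1.69 and -1.62, and without vehicle replicate 2 at -0.39 and -0.36. Another probe of Smarcal1 gave a change of 0.090, so its pattern holds for its brightest probe. Pla1a, too, met the brightness filter through 1 group only.

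**Figure D4:**
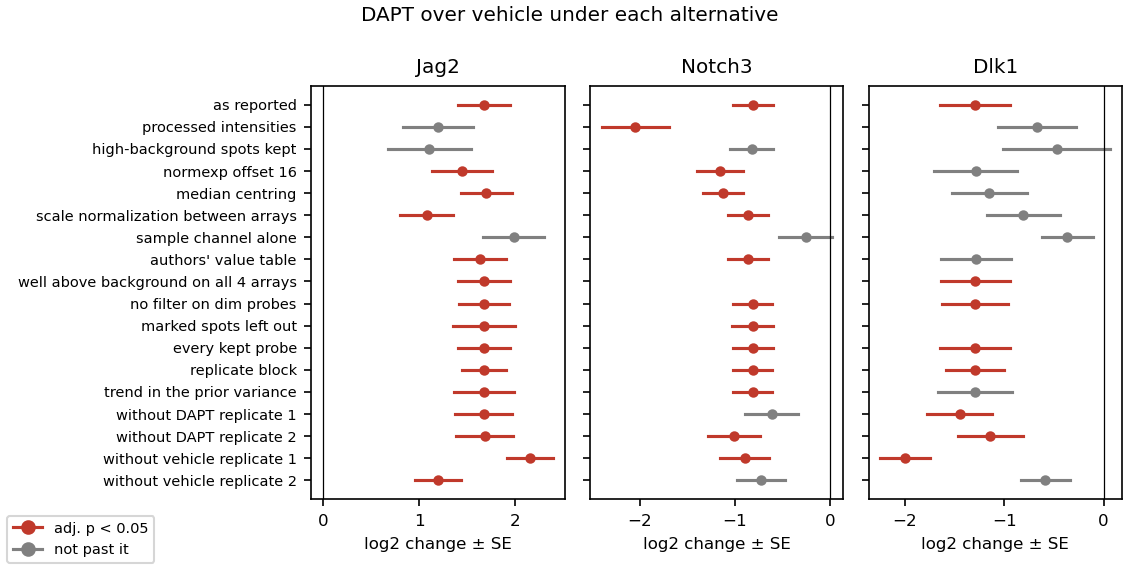
Log2 change ± SE, DAPT over vehicle, of Jag2, Notch3 and Dlk1 as reported and under each alternative way of processing; red marks an adjusted p under 0.05, and a missing point means that the gene could not be fitted. Jag2 stays between 1.08 and 2.15 and passes under 14 of 17 alternatives, Notch3 under 12 of 16 and Dlk1 under 7 of 16. Several alternatives alter only the filter or the error and leave the change itself as reported, so these are not counts of separate checks.

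Of 72 other genes of the Notch pathway, listed by role, 57 could be tested, and 6 were lower with DAPT and 0 higher in limma. Over all genes tested 3.92% were lower and 2.88% higher. The balance depended on the normalisation, since with median centring 1 of these pathway genes was lower and 3 were higher. The median change of the 57 was -0.15, against -0.06 over all genes tested. None of the 5 genes tested that help ligands to be taken up passed. The first of them, Mib1, a ubiquitin ligase that acts on Notch ligands, changed by 0.13 ± 0.23 (adjusted p = 0.770). None of the 4 sugar-modifying enzymes tested passed either, and Lfng, a Fringe enzyme that alters which ligands a receptor responds to, changed by 0.48 ± 0.19 (adjusted p = 0.154).

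Of 8 cleaving proteases tested 2 were lower. Furin, which cuts the receptor on its way to the cell surface, had log2 ratios of 1.98 and 1.93 with DAPT, against 2.80 and 2.81 with vehicle. Its change was -0.85 ± 0.19 (adjusted p = 0.0207), and the call was lost without DAPT replicate 2 (adjusted p = 0.0702). With median centring it stood at -0.40 and did not pass (adjusted p = 0.222). Adam10, the ADAM protease that cuts the ligand-bound receptor, had 2.04 and 1.86, against 2.50 and 3.22. Its change was -0.92 ± 0.24 (adjusted p = 0.0429). The call was lost without DAPT replicate 2 (-0.83, adjusted p = 0.0912) or without vehicle replicate 2, where it stood at -0.56 (adjusted p = 0.202).

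Among genes of the other roles, Dtx3, Mfap5 and Heyl were lower. Dtx3, a Deltex family member, had -0.46 and -0.46 with DAPT, against 0.39 and 0.21 with vehicle, a change of -0.76 ± 0.19 (adjusted p = 0.0368). The call was lost without DAPT replicate 1 (adjusted p = 0.0878), DAPT replicate 2 (adjusted p = 0.105) or vehicle replicate 1 (adjusted p = 0.0914). With median centring it stood at -0.37 and did not pass (adjusted p = 0.288). Leaving out marked spots gave -0.38. These Dtx3 ratios are those of its brightest probe, A_51_P249009. Another kept probe, A_52_P495453, was also below 0, at -0.53, but stayed short of the threshold (adjusted p = 0.135 in limma over all probes kept). The Dtx3 call therefore holds for its brightest probe only. Mfap5, a microfibril protein that can bind Notch1, had 0.37 and 0.54, against 1.16 and 1.43, a change of -0.84 ± 0.20 (adjusted p = 0.0284). It lost its call without DAPT replicate 1 (adjusted p = 0.0930) or vehicle replicate 2 (adjusted p = 0.0962). It met the brightness filter through 1 group only and was not tested when all 4 arrays had to meet it.

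Among the 12 effector and feedback targets tested, Heyl was lower and none was higher, with a median change of -0.44. Heyl, a transcriptional repressor of the Hairy and Enhancer of split type, had -0.83 and -0.82 with DAPT, against 0.10 and -0.03 with vehicle. Its change was -0.86 ± 0.19 (adjusted p = 0.0206), and the call was lost without DAPT replicate 2 (adjusted p = 0.0569). Hes1, the most used readout of Notch activity, had -0.42 and -0.21, against 0.08 and 0.69. The groups did not overlap, and the change of -0.70 ± 0.23 (adjusted p = 0.0937) did not pass. When 1 array was left out, the change of Hes1 ran from -1.002 (without vehicle replicate 1) to -0.39 (without vehicle replicate 2).

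**Figure D5:**
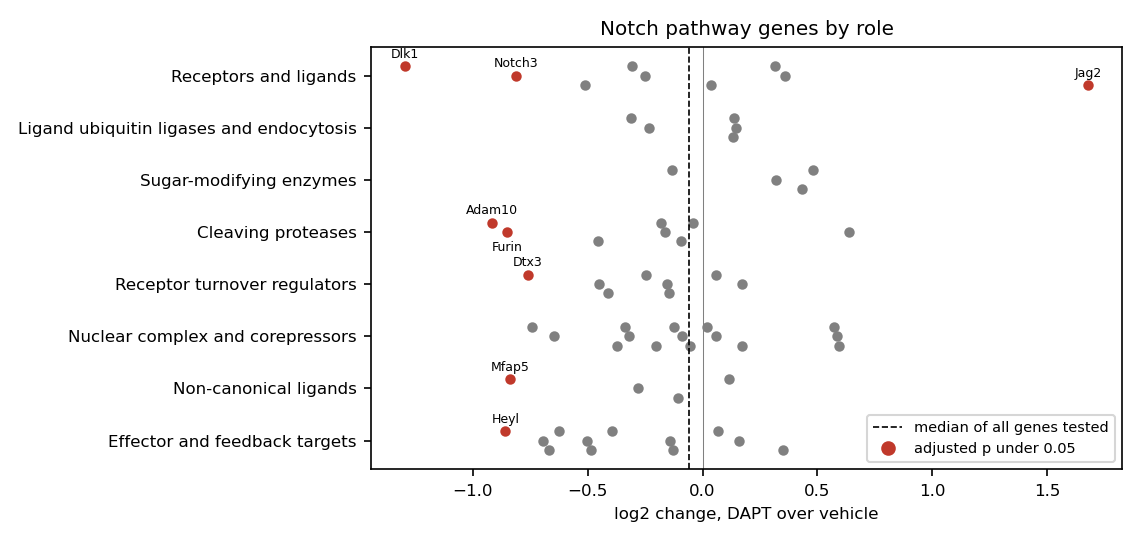
Log2 change, DAPT over vehicle, of Notch pathway genes that could be tested, 1 point a gene, with 1 of the 57 not drawn, in rows by role, with the receptors and ligands on top; red marks an adjusted p under 0.05 and the dashed line the median of all genes tested (-0.06). Jag2 is the 1 gene past the threshold on the right, and the 7 labelled genes on the left are past it too.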

How the data were processed

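RNA of 2 DAPT and 2 vehicle sphere samples was hybridised to 2-colour Agilent arrays, sphere RNA in red and the reference in green, with no dye swap, per the labels. The deposited scanner files (Feature Extraction 10.7.3.1, per the file headers) hold median spot and local background intensity for each colour and a log10 ratio. The authors' deposited value table holds log2 ratios, with normalization not stated. It correlated at 0.99955 to 0.99981 with the normalized ratios used here, so it is hardly a separate processing. Its column medians were -0.015 and -0.011 (DAPT) and 0.00072 and -0.011 (vehicle), its correlations with the scanner log ratios were 0.869 to 0.902, and larger values meant more sphere RNA. Spots were background corrected (normexp, offset 50) and loess normalized within arrays, with control spots at weight 0 (limma 3.58.1, R 4.3.3). On DAPT 2, 13 spots with local background over 5 times the array median were left out, none of a gene described. Probes had to be well above background, in red, on both DAPT or both vehicle arrays. Where a gene had several such probes the brightest was used. Probe accessions were named through RefSeq (GRCm38.p6) for 24375 of 41174 probes. Groups were compared with limma (prior degrees of freedom 10.2, residual 2), two-sided, with Benjamini-Hochberg adjustment over 21459 genes, a step tested on simulated data. Genes named are the 10 receptors and ligands, pathway genes past the threshold (or the first of a list), and the 3 most alike genes per call. Some genes under this rule are not reported here. The genes and lists were chosen with earlier results of these data known. Precision is limited by 2 arrays a group. No probe spot was saturated. Alternatives are in the closing section. Same-numbered arrays were not paired by the labels, and their deviations from group means correlated at 0.084.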

Additional observations from a re-analysis of the deposited data

How the results depend on the processing

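Jag2, Notch3 and Dlk1 kept their direction under every alternative that gave a value. Jag2 did not pass with processed intensities (1.20), with high-background spots kept (1.11, adjusted p = 0.413) or by red signals alone (1.98). Red signals alone are the sample channel values above, whose scaling also used the reference colour. Dlk1 ranged from -2.001 to -0.37 and Notch3 from -2.05 to -0.26. The count of the 10 genes higher, 1 as reported, was 0 under those 3 settings. The count lower, 2 as reported, was 0 with high-background spots kept and by red signals alone, and 1 with processed intensities, offset 16, median centring, scale normalization, the authors' table, probes well above background on all 4 arrays, marked spots left out, and a trend in the prior variance. Leaving out 1 array gave 0 to 2 lower. Of the other pathway genes, 0 higher as reported, 3 were higher with median centring, 1 with marked spots left out and 2 with every probe (0 to 1 when 1 array was left out). Against 6 lower as reported, 1 was lower with processed intensities, 1 with median centring, 2 with marked spots left out, where Furin, Adam10 and Heyl could not be fitted, and 0 with high-background spots kept and by red signals alone (2 to 8 when 1 array was left out). With the replicate block 1 receptor or ligand gene was higher and 2 lower, and 0 and 9 of the other pathway genes. Furin, Adam10, Dtx3 and Heyl did not pass with processed intensities, nor did Furin, Adam10, Dtx3 and Mfap5 with median centring. The block moved Hes1 past the threshold (adjusted p = 0.0436), but the samples share only a number.

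Of the genes named, Notch1, Notch2, Jag1, Dll4, Mib1 and Smarcal1 reversed direction under some alternative, and none of these had passed. Notch2 stood at 0.25 with processed intensities, 0.10 with median centring and 0.30 by red signals. Jag1 stood at -0.14 with processed intensities, -0.75 with high-background spots kept and -0.40 with scale normalization. Notch1 stood at -0.087 with high-background spots kept and -0.044 by red signals, and Dll4 at -0.064 by red signals. Leaving out 1 array gave -0.047 to 0.12 for Dll4 and -0.17 to 0.44 for Mib1. Smarcal1 stood at 0.090 with marked spots left out and 0.090 by its probe A_52_P655532. Over all genes, calls higher and lower were 619 and 841 as reported, 282 and 413 with processed intensities, 3 and 70 with high-background spots kept, 440 and 598 with offset 16, 1240 and 519 with median centring, 385 and 998 with scale normalization, 0 and 1 by red signals alone, 372 and 208 with marked spots left out and 898 and 1168 with the replicate block. Median centring moved the median of all genes to 0.11, and relative to it Jag2 stood at 1.59, Notch3 at -1.24 and Dlk1 at -1.26. The cause of these differences was not tested. A block for slide or scan could not be fitted, since all arrays share both. Dim red signals limit Notch3, Dlk1 and Dll3, and the red signals of Notch4 and Dll1 were near the array median or below it.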
